A study of Mus musculus with 4 samples.

Results

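The matrix metalloproteinases (MMPs), the ADAM, ADAMTS and ADAMTS-like proteins, and their tissue inhibitors (TIMPs) were followed in single cells of mouse hindlimb muscle. Members were chosen by name alone: a gene counted if its symbol was Mmp, Adam, Adamts, Adamtsl or Timp followed by a number and an optional letter. Of the 32285 genes in the count tables, 83 had such a symbol, and 60 of them held at least 100 unique molecular identifiers (UMIs, each standing for 1 captured RNA molecule) over all libraries. These 60 were 15 of 22 Mmp genes, 17 of 33 Adam genes, 19 of 19 Adamts genes, 5 of 5 Adamtsl genes and 4 of 4 Timp genes. The other 23 had from 0 to 92 UMIs in all, Mmp24 being the highest of them, and 9 of them were at 0. Over the whole series 17618 genes reached 100 UMIs.

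Cells came from the tibialis anterior and the gastrocnemius of males aged 2 months and were measured by droplet single-cell RNA sequencing. All mice carried S100GFP-tg, in which the S100B promoter drives GFP and so marks Schwann cells, and the groups were S100GFP-tg mice without a further allele (WT) and S100GFP-tg Sod1-/- mice (Sod1KO). Muscles of 4 mice per genotype were pooled, and live cells were sorted into a GFP+ and a GFP- fraction, each of which gave 1 library. With 1 library per group there is no replicate and no test: every difference below compares pools, and all intervals are 95% intervals that cover counting error only.

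MMPs are zinc proteases that cut collagens, laminins and other matrix proteins, and they are made as inactive precursors that must themselves be cut. ADAMs are their membrane-anchored relatives and release the outer parts of other membrane proteins, whereas ADAMTS enzymes are secreted and trim procollagens and large proteoglycans such as versican and aggrecan. The ADAMTS-like proteins share the binding domains of ADAMTS enzymes without a protease, and TIMPs block the active site of MMPs and of some ADAM and ADAMTS enzymes. In nerve and muscle these proteins are known for opening and rebuilding the sheath around axons, vessels and fibres.

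After filtering, the GFP+ libraries kept 4557 (WT) and 5925 (Sod1KO) cells and the GFP- libraries 1638 and 5143 cells, with a median of 8020 to 14668 UMIs per cell. Clusters were found without the member genes and named from marker lists, so that a name such as tSC-like (terminal Schwann cell) or mSC-like (myelinating Schwann cell) rests on those markers only. The WT GFP- library stood apart: 54.5% of its cells fell in no named class, against 23.0% to 32.8% in the other libraries. From 11 to 25 cell barcodes of each library also occurred in another library. Levels are given as CPM, the UMIs of a gene relative to all UMIs of the cells named on the usual CPM scale. They are not divided by transcript length, since 1 molecule gives 1 UMI. Sod1 itself was at 90.5 CPM (WT) and 98.4 CPM (Sod1KO) in the GFP+ fraction and at 123 and 113 CPM in the GFP- fraction. The sources used here do not say which part of Sod1 is deleted, and reads come from the 3′ end of a transcript, so this level does not check the genotype, and Sod1KO below means the library labelled so. S100b, whose promoter drives the GFP, was at 135 and 87.9 CPM in GFP+ cells and 7.43 and 7.77 CPM in GFP- cells. The members together held from 0.412% to 0.481% of the UMIs of the kept cells in the 4 libraries.

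Expression of the members was divided by cell type, and the families differed in how widely they were used. In WT GFP+ between 10 members (mSC-like cells) and 30 members (mesenchymal-like cells) reached 20 CPM. The class or cluster with the highest level was the same in both GFP+ libraries for 38 of the 60 members. Families ranked differently in different cells: in mSC-like cells of WT GFP+ the Timp genes summed to 1611 CPM and the Mmp genes to 193 CPM, while in tSC-like cells the Adam genes, at 2022 CPM, summed to more than the Timp genes at 1179 CPM.

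**Figure D1:**
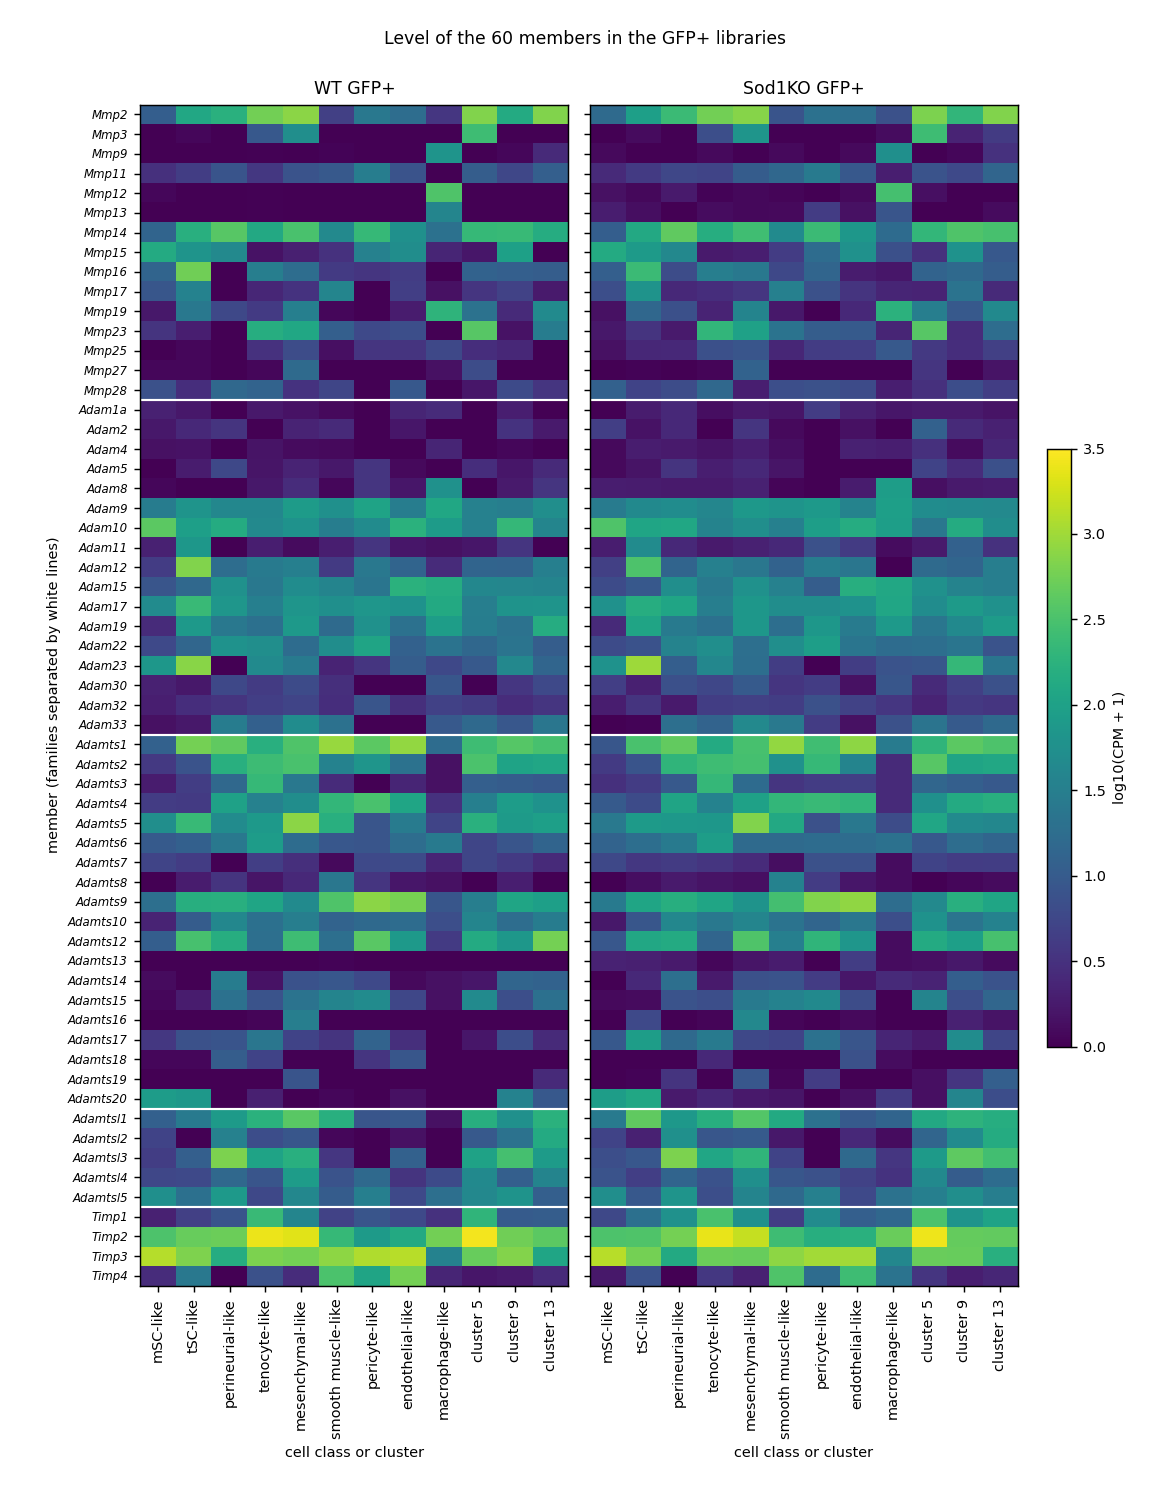
Heat map of log10(CPM + 1) for the 60 members (rows, by family) in 9 classes and 3 clusters without a class name (columns) of the WT GFP+ and Sod1KO GFP+ libraries. Mmp12 and Mmp9 stand out in macrophage-like cells, Adam12, Adam23 and Mmp16 in tSC-like cells, and Timp2 and Timp3 are bright in nearly every column.

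Among the secreted MMPs, Mmp2, a gelatinase, was the most abundant, at 770 CPM (743 to 798) in mesenchymal-like cells of WT GFP+ and 741 CPM (718 to 764) in Sod1KO GFP+. It was also high in cluster 13, a group without a class name, at 695 and 683 CPM, and in tenocyte-like cells, at 573 and 568 CPM. Smooth muscle-like cells had 3.57 and 7.06 CPM and mSC-like cells 10.1 and 15.4 CPM. Fibroblast- and tendon-type cells thus carried most of it, with tSC-like cells between, at 125 and 93.3 CPM. Mmp23 was highest in cluster 5, with 383 CPM in WT and 392 CPM in Sod1KO. That is a group of cells with few UMIs and mesenchymal markers that was left without a class name (Inmt, Gdf10 and Rbp4 are among its leading genes). Tenocyte-like cells came next for Mmp23, at 152 and 199 CPM. Mmp14, a membrane-bound MMP that activates the Mmp2 precursor, was broader and was highest among the named classes in perineurial-like cells, at 383 CPM (326 to 448) and 445 CPM (409 to 482).

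Mmp15 and Mmp16, membrane-type relatives of Mmp14, were highest in different Schwann cells. Mmp15 was at 138 CPM (130 to 147) in mSC-like cells of WT GFP+ and 138 CPM (127 to 150) in Sod1KO GFP+. Those cells held 40.1% of its UMIs in WT and 23.6% in Sod1KO. The tSC-like cells of Sod1KO GFP+ came next for Mmp15, at 78.8 CPM. Mmp16 was at 546 CPM (528 to 565) in tSC-like cells of WT GFP+ against 12.6 CPM in mSC-like cells, and tSC-like cells held 77.6% of its UMIs. In Sod1KO GFP+ its level in tSC-like cells was 246 CPM.

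A group of Mmp genes lies side by side on chromosome 9. Mmp3 (stromelysin), Mmp12 (macrophage elastase) and Mmp13 (a collagenase) are neighbours there, with gaps of 61.1 kb between Mmp13 and Mmp12 and 85.4 kb between Mmp12 and Mmp3 in GRCm38.p6. Each was highest in a different set of cells. Mmp3 was at 254 CPM (230 to 280) in cluster 5 of WT GFP+ and 259 CPM (239 to 280) in Sod1KO GFP+, with 52.3% and 52.9% of its UMIs there, and the next class, mesenchymal-like cells, had 51.9 and 65.3 CPM. Mmp12 was at 342 CPM (318 to 366) and 290 CPM (271 to 309) in macrophage-like cells, which held 99.4% and 98.7% of its UMIs, although 1 cell gave 19.3% of the WT UMIs and 1 cell 44.6% of the Sod1KO UMIs. Mmp13 was highest in cluster 33, whose leading genes include Bglap, Bglap2 and Ibsp, known from bone-forming cells. That cluster had 6 cells with 66 Mmp13 UMIs in WT GFP+ and 35 cells with 898 UMIs in Sod1KO GFP+, which is too few cells for a comparison of genotypes. It held 41.5% of the Mmp13 UMIs in WT and 94.9% in Sod1KO. Mmp13 was also found in macrophage-like cells, where Mmp12 was highest, at 38.1 CPM in WT and 7.45 CPM in Sod1KO.

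The promoters of these 3 genes are shown because the same letters recur in all of them. The 120 bases before a start of each gene are given from RefSeq (GRCm38.p6, plus strand), with the AP-1 motif TGACTCA, or TGAGTCA on the other strand, in capitals. The windows are chr9:7445702-7445821, chr9:7347254-7347373 and chr9:7272394-7272513. Mmp3 and Mmp13 have 1 start in that table and Mmp12 has 2: its window precedes the inner start, 2.98 kb inside the annotated gene, while the gaps above run from the outer start, whose window does not hold the motif.

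Mmp3: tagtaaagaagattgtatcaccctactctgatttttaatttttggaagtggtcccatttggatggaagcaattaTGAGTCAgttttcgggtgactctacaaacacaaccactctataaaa

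Mmp12: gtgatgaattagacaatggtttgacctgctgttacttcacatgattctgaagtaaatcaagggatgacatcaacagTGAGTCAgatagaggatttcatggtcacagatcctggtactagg

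Mmp13: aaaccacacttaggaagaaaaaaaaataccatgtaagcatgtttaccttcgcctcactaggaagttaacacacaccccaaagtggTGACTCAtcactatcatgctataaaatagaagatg

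The motif begins 46 bases before the start in Mmp3, 44 in Mmp12 and 35 in Mmp13. Of the 60 members, 36 had a promoter in the RefSeq table used, and 4 of these (11.1%) held the motif within 250 bases before a start: the 3 above and Adam19. Of all 27025 genes in that table, 1395 (5.16%) held it. A match describes letters only, and its part in the levels of the 3 neighbours was not tested.

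**Figure D2:**
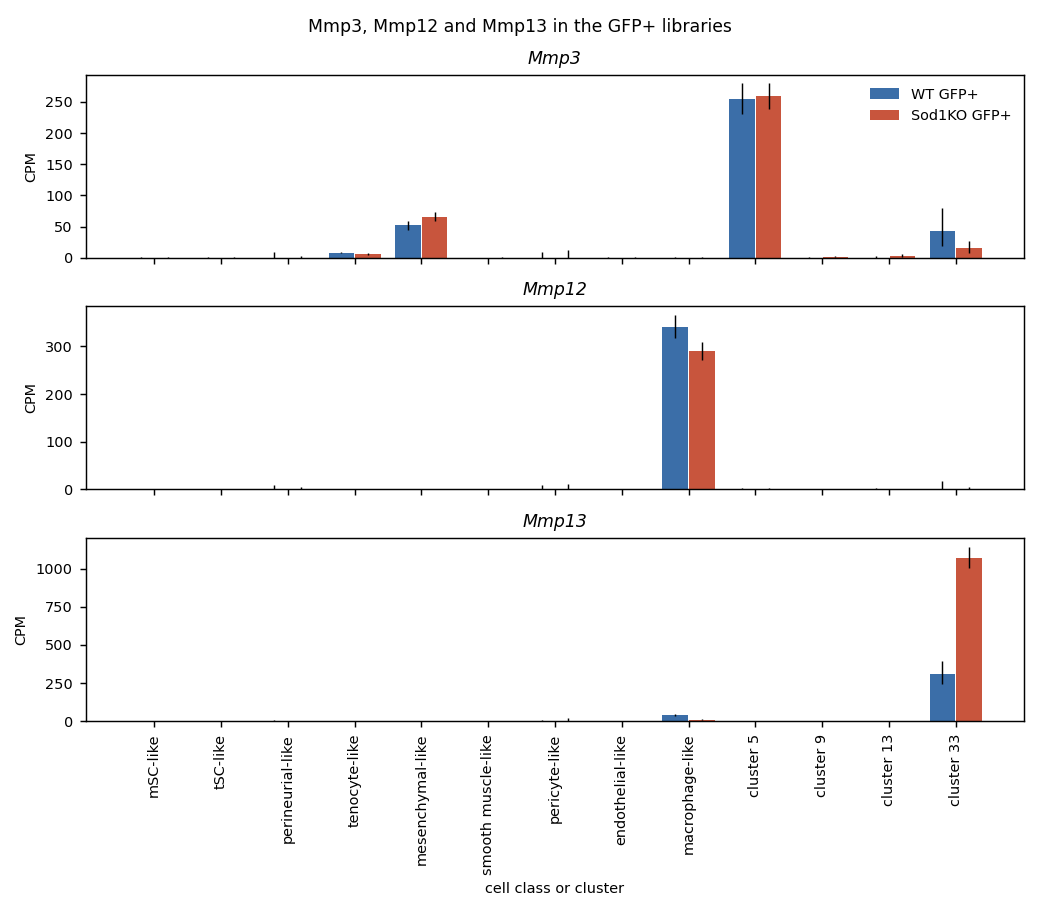
Bars give CPM of Mmp3, Mmp12 and Mmp13 in each class or cluster of the WT GFP+ and Sod1KO GFP+ libraries, with 95% counting intervals. Mmp3 peaks in cluster 5, Mmp12 in macrophage-like cells and Mmp13 in cluster 33, where WT GFP+ has 6 cells.

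Macrophage-like cells held further members. Mmp9, the other gelatinase, was at 64.7 and 54.4 CPM there in WT and Sod1KO GFP+, Mmp19 at 187 and 176 CPM, and Adam8, a leukocyte ADAM, at 57.1 and 89.1 CPM. At a finer resolution the class came apart into a larger part of 93 WT and 145 Sod1KO cells with high Mrc1 and a smaller part of 36 and 64 cells. The smaller part passed 6 of 9 macrophage markers but was left unnamed by the naming rule. Its 10 leading genes held the neutrophil marker S100a9 and no macrophage marker. The single cells with the largest share of Mmp12 in each library lay in this smaller part. Mmp12 was at 1126 and 804 CPM in the smaller part against 64.6 and 16.9 CPM in the larger, and Mmp19 was at 550 and 381 CPM against 58.9 and 67.0 CPM. Mmp9 went the other way, with 1.62 and 8.40 CPM in the smaller part and 86.9 and 78.9 CPM in the larger. Mmp12 and Mmp9 thus marked different cells of the class. The neutrophil genes S100a8 and S100a9 were at 0 in the smaller part of WT and at 204 and 355 CPM in that of Sod1KO. Over the whole class the list of 6 neutrophil genes summed to 33.8 CPM in WT and 237 CPM in Sod1KO. Of these genes, 1 of 6 was over 20 CPM in WT and 3 of 6 in Sod1KO, and Ly6g was at 0 in both.

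Several ADAM genes were high in Schwann cells. Adam23, an ADAM without protease activity that binds LGI proteins, was at 764 CPM (742 to 787) in tSC-like cells of WT GFP+ and 984 CPM (965 to 1003) in Sod1KO GFP+, and those cells held 70.1% and 72.6% of its UMIs. Adam12, known from fusing and regenerating muscle, was at 682 CPM (661 to 703) in WT and 328 CPM (317 to 339) in Sod1KO, and tSC-like cells held 79.6% and 61.6% of its UMIs. Adam11, another ADAM without protease activity, had 85.9% of its UMIs in tSC-like cells of WT GFP+, at 70.6 CPM. The sheddase Adam17 was highest in the same cells, at 238 CPM in WT and 151 CPM in Sod1KO. By contrast Adam10, the second main sheddase, was highest in mSC-like cells, with 411 CPM (397 to 426) in WT and 338 CPM (321 to 355) in Sod1KO. Adam9 and Adam15 were spread over many classes, and Adam15 reached 173 CPM in endothelial-like and 144 CPM in macrophage-like cells of WT GFP+. Adam1a, Adam2, Adam4 and Adam5, some of them known as testis genes, stayed at or under 11.3 CPM in every class and cluster compared in the GFP+ libraries.

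Several ADAMTS genes were abundant in the vessel wall and in connective tissue. Adamts1, a versican-cutting enzyme, was at 916 CPM (900 to 933) in smooth muscle-like and 864 CPM (837 to 891) in endothelial-like cells of WT GFP+, and at 850 and 806 CPM in Sod1KO GFP+. Its genomic neighbour Adamts5, the main aggrecan-cutting enzyme of cartilage, lies 55.0 kb away on chromosome 16 and was highest elsewhere, at 790 CPM (762 to 818) and 684 CPM (662 to 707) in mesenchymal-like cells. Both lie on the chromosome of the mutated gene, Adamts5 being 4.32 Mb from Sod1. Adamts9 was at 776 CPM in pericyte-like and 599 CPM in endothelial-like cells of WT GFP+, and at 676 and 836 CPM in Sod1KO GFP+, where 1 cell gave 42.1% of the pericyte UMIs. Adamts1 is also known as a gene that responds quickly to handling of tissue. The 11 early response genes followed here summed to 14964 CPM in smooth muscle-like and 13230 CPM in endothelial-like cells of WT GFP+, and to 16299 CPM in mSC-like cells, where Adamts1 was at 11.2 CPM. Their part in the level of Adamts1 was not tested.

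The procollagen N-proteinases, which trim fibrillar collagen, also had unlike distributions. Adamts3 was concentrated in 1 class, with 93.7% of its UMIs in tenocyte-like cells of both GFP+ libraries, at 223 CPM (216 to 229) and 211 CPM (206 to 217). Adamts2 was broad, from 0.423 CPM in macrophage-like cells to 320 CPM in cluster 5 of WT GFP+. Adamts14 was low everywhere and highest in perineurial-like cells, at 28.9 and 17.8 CPM. Adamts8 and Adamts16 were also found mainly in 1 class. Adamts8 had 89.0% and 85.4% of its UMIs in smooth muscle-like cells. Adamts16 had 95.2% (120 UMIs) and 72.7% (221 UMIs) in mesenchymal-like cells. Adamts20, a versican-cutting enzyme, was found mainly in Schwann cells of WT GFP+, with 83.9 and 88.6 CPM in mSC-like and 72.3 and 122 CPM in tSC-like cells.

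Among the ADAMTS-like genes, whose products sit on fibrillin microfibrils and other matrix, Adamtsl3 was highest in perineurial-like cells, at 648 CPM (573 to 731) and 642 CPM (600 to 688). Adamtsl1 was at 406 CPM in mesenchymal-like cells of WT GFP+ and 363 CPM in Sod1KO GFP+. Adamtsl2 was highest in cluster 13, a group left unnamed that is led by Smim41, Saa1 and Fetub, with 138 and 141 CPM.

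The TIMPs were the most abundant family, with 590701 of the UMIs. Timp2, which both inhibits Mmp2 and takes part in its activation by Mmp14, was at 2529 CPM (2507 to 2552) in tenocyte-like cells of WT GFP+, 2223 CPM in mesenchymal-like cells and 2781 CPM (2700 to 2863) in cluster 5. Timp3, which binds to matrix and also inhibits Adam17 and ADAMTS enzymes, was highest in endothelial-like cells at 1311 CPM (1278 to 1344) and mSC-like cells at 1277 CPM (1251 to 1303), intervals that overlap, and lowest in macrophage-like cells at 34.2 CPM, of which 74.1% came from 1 cell. Timp4 was a vascular gene, with 581 CPM in endothelial-like and 318 CPM in smooth muscle-like cells, and had 0 UMIs in perineurial-like cells of both GFP+ libraries, which allows up to 7.23 CPM in WT and 2.32 CPM in Sod1KO (3 UMIs). Timp1, the inducible member, had 85.3% of its WT GFP+ UMIs in tenocyte-like cells, at 231 CPM (225 to 238).

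Between genotypes, a member was counted as higher or lower in a class if its CPM in Sod1KO was at least 2-fold that in WT or the reverse (a log2 ratio of 1 in size), among members with at least 50 UMIs in the 2 libraries together. Over 12 classes and clusters of the GFP+ fraction this gave 47 ratios, 30 higher and 17 lower in Sod1KO, for 27 different members. Among all genes tested, higher calls also outnumbered lower ones in each of the 12 except mSC-like and tSC-like cells. The split of the 47 ratios is thus no result about the members. As there is no replicate, each count of members in a class is set beside the percentage of all tested genes that passed the same limit. The median log2 ratio of the tested members was lowest in tSC-like cells, at -0.32 where all genes had -0.02, and highest in cluster 9, at 0.34 where all genes had 0.01. In the other classes and clusters it ran from -0.27 in pericyte-like to 0.20 in smooth muscle-like cells, with all genes at -0.07 and 0.01 there.

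**Figure D3:**
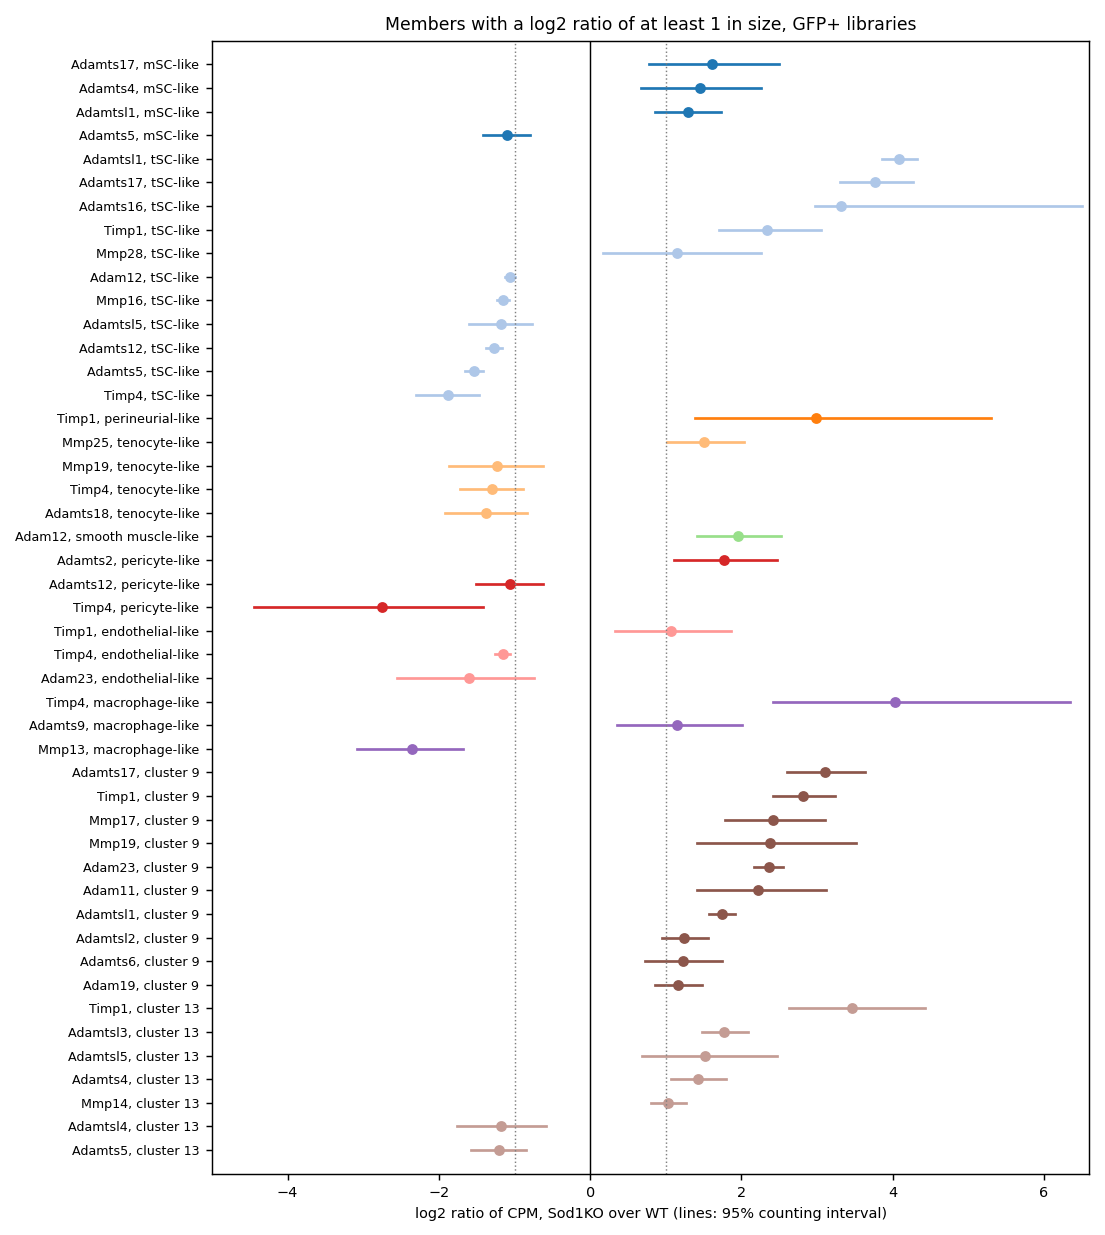
Points give the log2 ratio of CPM, Sod1KO over WT, for the 47 member and class pairs of the GFP+ libraries past the limit of 1, with lines for 95% counting intervals. Colours mark classes, and Adamts16 in tSC-like cells, at 0 UMIs in WT, is drawn at its lower bound against a floor of 3 UMIs with a line that runs off the axis.

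The tSC-like cells held the most called members of any named class: of 37 members tested, 5 were higher in Sod1KO (against 4.37% of all genes tested) and 6 lower (against 4.39% of all genes tested). Adamtsl1 went from 157 UMIs (26.1 CPM) in WT to 4795 UMIs (442 CPM) in Sod1KO, a log2 ratio of 4.08 (3.85 to 4.32). Adamts17 went from 39 to 956 UMIs (6.48 to 88.1 CPM, log2 ratio 3.76). Timp1 went from 22 to 201 UMIs and Mmp28 from 11 to 44, although within cluster 8 (7 and 40 Mmp28 UMIs) the log2 ratio of Mmp28 was -1.42. Adamts16 had 0 UMIs in WT and 54 in Sod1KO, a log2 ratio of at least 3.32 against a floor of 3 UMIs, with 29.6% of the UMIs from 1 cell. These genes are a matrix-binding protein, secreted proteases and an inhibitor. On the lower side stood the membrane-bound Mmp16, from 3286 to 2665 UMIs (546 to 246 CPM, log2 ratio -1.15), and Adam12, from 4101 to 3557 UMIs (682 to 328 CPM, log2 ratio -1.06). Adamts12 (-1.27), Adamts5 (-1.54), Adamtsl5 (-1.19) and Timp4 (-1.88) were lower as well. Secreted proteases, an ADAMTS-like protein and an inhibitor thus stood on both sides.

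The class was not made up alike in the 2 libraries, and most of these ratios changed once its clusters were read apart. Of the tSC-like cells, WT GFP+ had 310 in cluster 12 (led by Bche and Unc80) and 60 in cluster 8 (led by Btc, Cela1 and Kcnj10), whereas Sod1KO GFP+ had 207 and 591. The third cluster of the class, cluster 31, had 13 and 89 cells, too few in WT to be compared. Within cluster 12, of 28 members tested 1 was higher (against 0.702% of all genes tested) and 1 lower (against 1.37%). Within cluster 8, with 60 WT cells, 6 of 28 were higher (against 6.82%) and 4 lower (against 5.85%). Adamtsl1 kept its direction in clusters 12 and 8, from 22.1 to 65.1 CPM in cluster 12 (log2 ratio 1.56, 1.22 to 1.90) and from 73.8 to 515 CPM in cluster 8 (2.80, 2.33 to 3.32). Adamtsl5 was lower in both, with log2 ratios of -1.15 and -1.33. These differences were thus seen between cells of the same cluster, but cluster 8 was not made up alike either. By cell counts, the finer resolution split it mainly into a part of 33 WT and 561 Sod1KO cells and another of 28 and 31. Btc and Ngfr are among the leading genes of the first, Gfra3 and Scn7a among those of the second. The part of this split in the ratios within cluster 8 was not tested. Adamts17 was higher in cluster 8, from 47.1 to 102 CPM (log2 ratio 1.11, 0.52 to 1.78), and in cluster 12 had 11 and 14 UMIs (2.01 and 4.80 CPM), too few for the limit of 50. Mmp16, in contrast, was at 589 and 558 CPM in cluster 12 and went from 43.0 to 121 CPM in cluster 8, the opposite of its ratio in the class. Adam12 was at 730 and 861 CPM in cluster 12 and at 86.0 and 118 CPM in cluster 8, both higher in Sod1KO where the class as a whole was lower. Timp1 was at 2.74 and 3.43 CPM in cluster 12 and at 14.3 and 25.6 CPM in cluster 8, with intervals of the log2 ratio that hold 0 in each. Adamts5 kept its direction at smaller size, with log2 ratios of -0.41 (-0.56 to -0.27) in cluster 12 and -0.55 (-1.11 to 0.05) in cluster 8. The list of 7 erythroid genes (0 of 7 over 20 CPM in WT and 4 of 7 in Sod1KO) summed to 16.1 CPM in tSC-like cells of WT and 1025 CPM in those of Sod1KO, and the endothelial list (3 of 11 and 0 of 11) to 165 and 59.7 CPM, and the part of either in these ratios, that of Timp4 included, was not tested.

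**Figure D4:**
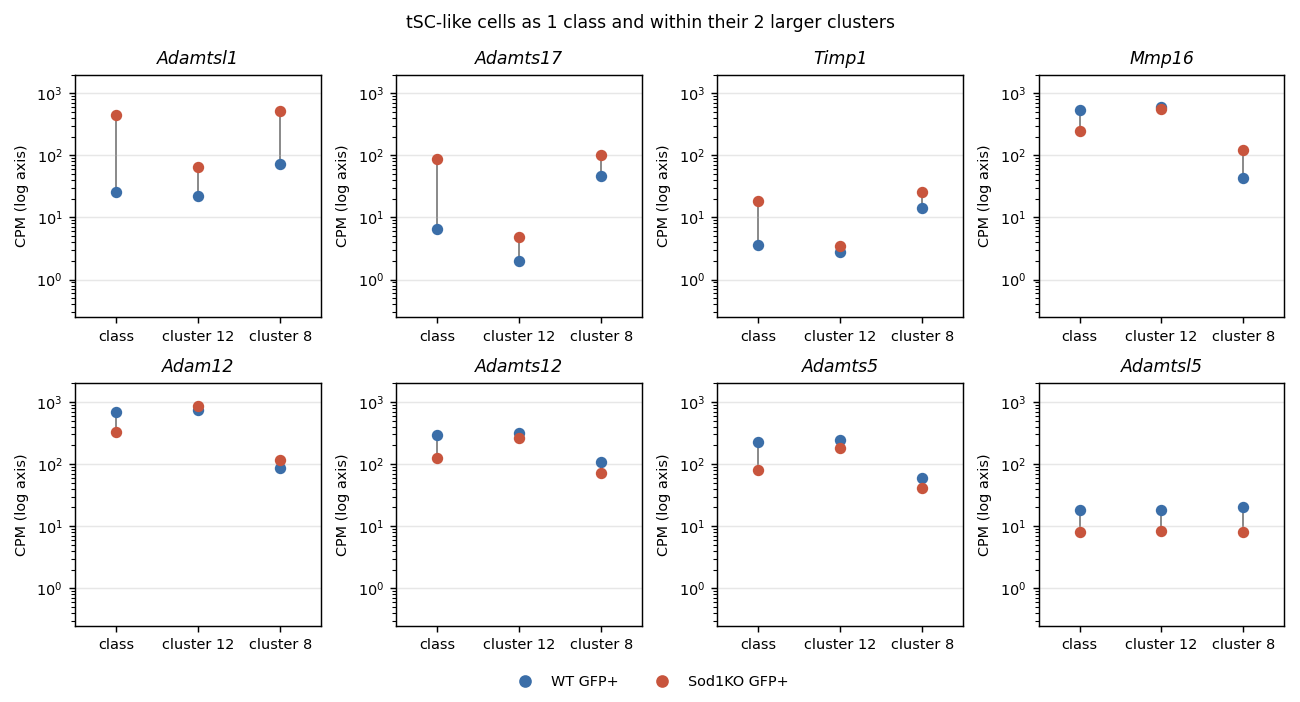
CPM (log axis) of 8 members in tSC-like cells of WT GFP+ and Sod1KO GFP+, for the class and within clusters 12 and 8. Adamtsl1 and Adamtsl5 differ in the same direction in the class and in both clusters, as do the points of Adamts17, which rest on 11 and 14 UMIs in cluster 12, whereas Mmp16 and Adam12 do not.

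In mSC-like cells 3 of 27 members were higher (against 0.794% of all genes tested) and 1 was lower (against 0.871% of all genes tested). Adamts5 went from 378 to 109 UMIs (53.0 to 24.7 CPM, log2 ratio -1.10, -1.42 to -0.79). The higher ones were at low levels: Adamtsl1 went from 10.7 to 26.1 CPM (log2 ratio 1.29), Adamts17 from 2.67 to 8.16 CPM (1.61) and Adamts4, an aggrecan- and versican-cutting enzyme, from 3.23 to 8.84 CPM (1.45), with 26.1% of its WT UMIs from 1 cell. Adamtsl1 and Adamts17, higher in tSC-like cells, were thus higher in mSC-like cells too. With stricter cell filters, or with at least 200 UMIs, 1 member in place of 4 passed the limit in this class. The most abundant members of this class, Timp3 (1277 and 1348 CPM), Adam10 and Mmp15, did not pass the limit.

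Cluster 9, which carried both myelin and perineurial markers and was left unnamed, had the largest number of higher members: 10 of 39 (against 4.83% of all genes tested) and none of 39 lower (against 2.11%). Adamts17 went from 36 to 367 UMIs (log2 ratio 3.10), Timp1 from 57 to 477 (2.81), Mmp17 from 24 to 152 (2.41), Mmp19 from 10 to 62 (2.38), Adam23 from 262 to 1601 (2.36), Adam11 from 15 to 83 (2.22) and Adamtsl1 from 344 to 1363 (1.74). Adamtsl2, Adamts6 and Adam19 had log2 ratios from 1.16 to 1.25. Adam23 and Adam11 had most of their UMIs in tSC-like cells in these libraries. At the finer resolution the cells of this cluster lay mostly in a part of 304 WT and 150 Sod1KO cells and in another of 12 and 164 cells, which carried perineurial and some tSC markers. In the first, of 35 members tested 2 were higher (against 1.41% of all genes tested) and 1 lower (against 1.06%). All 10 ratios kept their sign there, with Timp1 at 2.64, Adamts17 at 1.29, Adam23 at 0.62 and Adamtsl1 at 0.16. The 12 mSC markers, all over 20 CPM in both libraries, summed to 18526 CPM in cluster 9 of WT and 9448 CPM of Sod1KO, and their part in the ratios was not tested. In perineurial-like cells (46 and 94 cells) 1 of 22 members was higher (against 4.16% of all genes tested) and none of 22 lower (against 2.4%). The higher one was Timp1, from 3 UMIs to 74 (log2 ratio 2.98, 1.38 to 5.29). At the finer resolution, where the class takes in the part of 12 and 164 cells, 10 members passed the limit. That count has no percentage of all genes beside it and is no result about the members.

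In mesenchymal-like cells none of 40 members passed the limit in either direction, where 1.34% of all genes were higher and 1.05% lower, and the members' log2 ratios ran from -0.69 to 0.96. Cluster 5 likewise gave none of 29, against 1.9% and 0.427% of all genes. Tenocyte-like cells had 1 of 44 higher (against 1.59% of all genes tested), Mmp25, a GPI-anchored MMP that went from 42 to 193 UMIs, and 3 of 44 lower (against 0.806% of all genes tested). The lower ones were at low levels: Adamts18 went from 4.00 to 1.54 CPM, Timp4 from 6.49 to 2.64 CPM and Mmp19 from 2.96 to 1.25 CPM. Mmp2, Mmp14, Adamts2, Adamts3 and Timp2, the abundant members of these cells, differed by less than 2-fold. In cluster 13 (77 and 314 cells) 5 of 30 members were higher (against 4.03% of all genes tested) and 2 lower (against 2.66% of all genes tested). Timp1 went there from 12 to 390 UMIs (9.78 to 107 CPM, log2 ratio 3.46), Adamtsl3 from 81.5 to 278 CPM, Adamts4 from 60.3 to 161 CPM, Adamtsl5 from 10.6 to 30.3 CPM and Mmp14 from 147 to 299 CPM, while Adamts5 went from 92.9 to 40.2 CPM and Adamtsl4 from 36.7 to 16.2 CPM. The mesenchymal markers (11 of 12 over 20 CPM in each library) summed to 21287 CPM in cluster 13 of WT and 14562 CPM of Sod1KO. The tenocyte list (1 and 4 of 9) summed to 73.4 and 262 CPM there, the perineurial list (1 and 2 of 6) to 54.6 and 250 CPM and the erythroid list (0 and 4 of 7) to 14.7 and 888 CPM, and the part of these lists was not tested.

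In the vessel wall Timp4, a TIMP known from heart and vessels, differed. In endothelial-like cells it went from 2695 UMIs (581 CPM, 559 to 603) in WT GFP+ to 1198 UMIs (260 CPM, 246 to 275) in Sod1KO GFP+, a log2 ratio of -1.16 (-1.26 to -1.06). Most of these UMIs, 2295 and 1066, lay in cluster 0, the largest cluster of the class (175 and 144 cells). Timp4 was at 1120 and 594 CPM there, a difference short of 2-fold. The part of the make-up of the class in its ratio was not tested. Smooth muscle-like cells, the other Timp4 site, had 318 and 345 CPM. Of 30 members in endothelial-like cells 1 was higher, Timp1 (against 1.58% of all genes tested), and 2 were lower, Timp4 and Adam23 (against 0.568% of all genes tested), where Adam23 had 46 and 15 UMIs. Smooth muscle-like cells had 1 of 37 higher (against 2.54% of all genes tested), Adam12 with 40 and 98 UMIs, with 28.6% of the Sod1KO UMIs from 1 cell, and none of 37 lower (against 0.474%). Pericyte-like cells (42 and 49 cells) had 1 of 11 higher (against 3.08% of all genes tested), Adamts2 with 27 and 69 UMIs, and 2 lower (against 2.49% of all genes tested), Adamts12 with 167 and 60 UMIs and Timp4 with 45 and 5 UMIs. In GFP- pericyte-like cells Timp4 had 38 and 147 UMIs (log2 ratio 0.31, -0.22 to 0.86), and 1.19 after 5% of the UMIs was taken off as assumed ambient RNA. Endothelial markers (10 of 11 over 20 CPM in WT, 5 of 11 in Sod1KO) summed to 1013 CPM in pericyte-like cells of WT and 475 CPM of Sod1KO. The erythroid list in endothelial-like cells (4 of 7 in both) summed to 2499 CPM in WT and 11468 CPM in Sod1KO, and the part of either in the Timp4 ratios was not tested.

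Macrophage-like cells had 2 of 19 members higher (against 3.03% of all genes tested) and 1 lower (against 0.998% of all genes tested), and all 3 rested on few cells. Mmp13 had 90 UMIs in WT and 23 in Sod1KO, with 45.6% of the WT UMIs from 1 cell. Adamts9 had 18 and 52 UMIs, with 83.3% of the WT UMIs from 1 cell. Timp4 had 3 and 64 UMIs (log2 ratio 4.03, 2.42 to 6.35), with 28.1% of the Sod1KO UMIs from 1 cell. Endothelial markers in this class (2 of 11 over 20 CPM in WT, 7 of 11 in Sod1KO) summed to 131 and 382 CPM and the erythroid list (0 and 4 of 7) to 13.5 and 6367 CPM, and their part was not tested.

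Read across cells, the inhibitors did not move alike. Timp1 was higher in Sod1KO, with an interval above 0, in 11 of 12 classes and clusters of the GFP+ fraction, and smooth muscle-like cells were the exception (3.87 and 3.30 CPM). In tenocyte-like cells, which hold most of it, the difference was small, with 231 and 313 CPM (log2 ratio 0.44, 0.38 to 0.49). Cluster 5 had the next highest level in WT and went from 192 to 317 CPM, also short of 2-fold. Mesenchymal-like cells had 37.6 and 56.0 CPM (0.57, 0.29 to 0.87). The ratios from 2.34 to 3.46 in tSC-like and perineurial-like cells and in clusters 9 and 13 started from WT levels under 10 CPM. Within clusters 12 and 8 of the tSC-like cells, read apart, the intervals of the Timp1 ratio held 0. Myofiber-like cells (88 and 105 cells), left out of the 12 because 4 members could be compared there, had 74 and 69 Timp1 UMIs, with 66.2% of the WT UMIs from 1 cell. Over all kept cells Timp1 was at 73.1 CPM in WT and 142 CPM in Sod1KO of the GFP+ fraction. With 5% of the UMIs of each class taken off as assumed ambient RNA, 10 of the 11 ratios remained, from 0.43 in tenocyte-like to 4.52 in tSC-like cells, and mSC-like cells (8 and 21 UMIs) gave none. In tSC-like cells the step took off nearly the whole WT count. The WT side of 4.52 is therefore the floor of 3 UMIs and not a measured level. Timp2 and Timp3 passed the limit in none of the 12, but after that step Timp2 was at 1.88 in pericyte-like and Timp3 at 2.95 in macrophage-like cells. The Timp3 value compares Sod1KO with the floor of 3 UMIs, because the step took off the whole WT count, so it shows no measured rise. Timp2 was lower in mesenchymal-like cells, at 2223 and 1551 CPM (log2 ratio -0.52, -0.56 to -0.48), and in tSC-like cells (-0.54). Timp3 had its lowest ratio in cluster 9 (-0.54) and was at -0.33 in endothelial-like and in tenocyte-like cells. Timp4 was lower in 4 of the 11 classes and clusters that gave a ratio and higher in 2, macrophage-like and smooth muscle-like cells, the latter at 0.12.

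**Figure D5:**
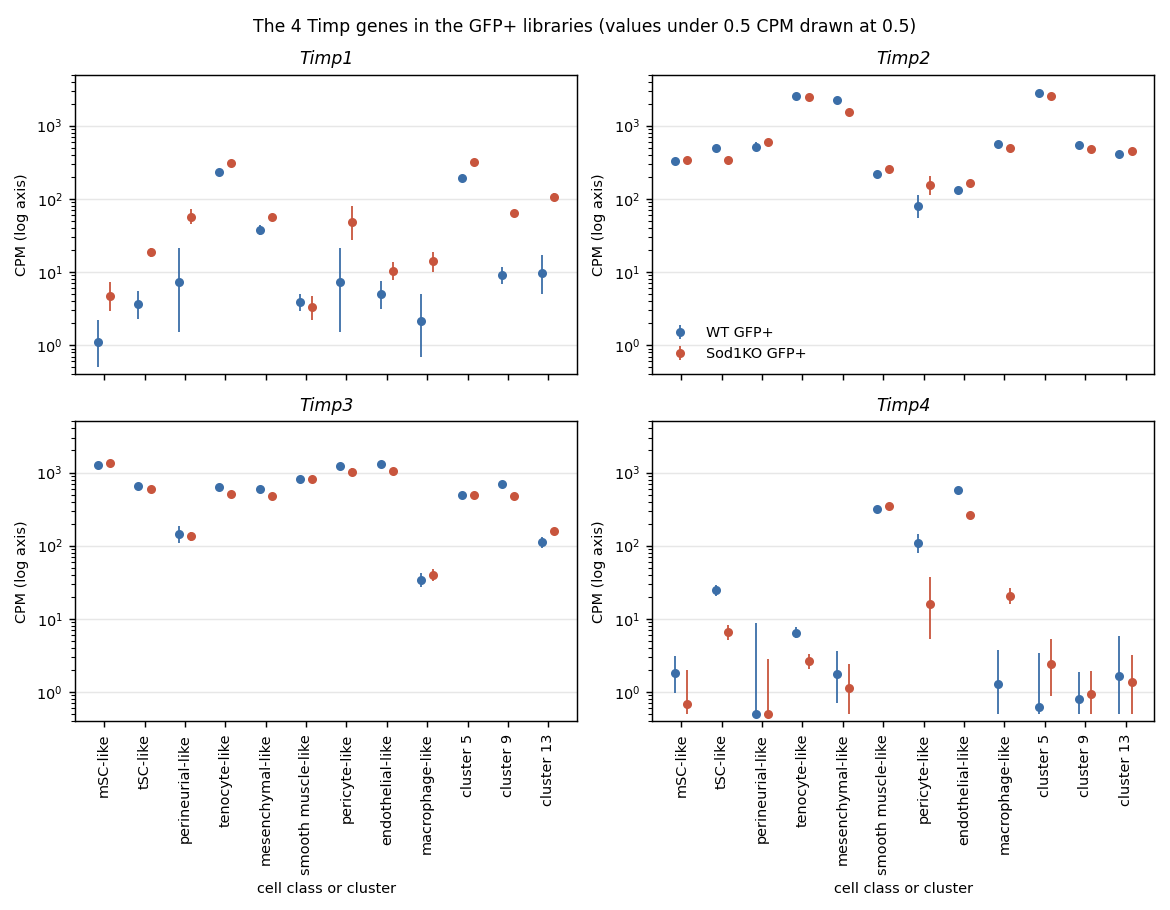
CPM (log axis) of Timp1, Timp2, Timp3 and Timp4 by class or cluster in WT GFP+ and Sod1KO GFP+, with 95% counting intervals. Timp1 lies higher in Sod1KO in 11 of the 12 columns, Timp2 and Timp3 keep their level within 2-fold, and Timp4 is lower in endothelial-like cells.

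The GFP- fraction of the same pools gave the vascular classes a second reading, which is no replicate of the mice. In endothelial-like cells (496 WT and 1606 Sod1KO cells) 3 of 34 members were higher (against 4.53% of all genes tested) and 1 lower (against 1.12% of all genes tested). Timp4 went from 7629 UMIs (1089 CPM) to 13786 UMIs (583 CPM), a log2 ratio of -0.90 (-0.94 to -0.86), which falls short of the limit in the direction of the GFP+ value. Adamts4 went from 27.4 to 71.7 CPM (log2 ratio 1.39, 1.17 to 1.61), against 115 and 201 CPM in the GFP+ fraction. Adamts17 had 8 and 178 UMIs, and Timp1 3 and 60 UMIs (log2 ratio 2.57, 0.95 to 4.88), with 45.0% of the latter from 1 cell. After the same 5% was taken off, the Timp1 ratio was 0.48, with the WT side at the floor of 3 UMIs. The lower member was Adamtsl5, with 27 and 39 UMIs. In GFP- smooth muscle-like cells (40 and 200 cells) 3 of 21 members were higher (against 3.07% of all genes tested) and none of 21 lower (against 1.46%). They were Adam33 with 5 and 56 UMIs, Adamts12 with 8 and 76 and Adamts8 with 10 and 86. In GFP- pericyte-like cells none of 18 members was higher (against 2.5%) and 1 was lower (against 1.43% of all genes tested), Mmp2 with 25 and 29 UMIs. The members' median log2 ratio was 0.25 in endothelial-like, 0.24 in smooth muscle-like and 0.06 in pericyte-like cells, where all genes had -0.03, -0.07 and -0.04. All 3 comparisons rest on the WT GFP- library, which stood apart from the others.

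Adamts13, which cuts von Willebrand factor in blood, was found almost only in the libraries labelled Sod1KO. It had 1 UMI (WT) and 66 UMIs (Sod1KO) in the kept GFP+ cells, or 0.0140 and 0.738 CPM, and 1 and 87 UMIs in the GFP- cells, or 0.0499 and 1.06 CPM. In Sod1KO its UMIs were spread over many classes at low levels, with 3.26 CPM in endothelial-like, 1.13 CPM in mSC-like, 1.01 CPM in tSC-like and 0.161 CPM in tenocyte-like cells of the GFP+ fraction. No class reached 50 UMIs, so it entered none of the counts above. Over all kept cells its log2 ratio came to 5.72 (3.19 to 11.05) for the GFP+ pair and to 4.41 (1.89 to 9.73) for the GFP- pair. Of 17279 genes with at least 100 UMIs in the kept cells, 9 (0.0521%) were at least 5-fold higher in both Sod1KO libraries with WT set to at least 3 UMIs, and Adamts13 was 1 of them.

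The counts for 26 other genes of the pathway (inhibitors, activators, plasminogen system, receptors and substrates) are to be read against the percentages given above for each class. None of 24 tested passed the limit in tenocyte-like cells and none of 23 in endothelial-like cells of the GFP+ fraction. In tSC-like cells 2 of 20 were higher and 1 lower: Plat, tissue plasminogen activator, went from 16.8 to 45.3 CPM and Rhbdf2, which helps Adam17 mature, from 6.81 to 30.4 CPM, while Lrp1, a receptor that clears proteases, went from 291 to 133 CPM. In cluster 9, 6 of 23 were higher and none lower, among them Plat (20.3 to 63.5 CPM) and Vcan, the versican gene (50.7 to 112 CPM). Plat was the 1 gene higher of 20 in mSC-like cells, at 4.77 and 13.1 CPM. Plat was past the limit in perineurial-like and macrophage-like cells as well. In the remaining GFP+ groups 4 of 12 genes were higher in perineurial-like, 4 of 21 in smooth muscle-like, 3 of 12 in macrophage-like and 2 of 6 in pericyte-like cells, with none lower. Mesenchymal-like cells had none higher and 1 of 21 lower, cluster 5 had 1 higher and 2 lower of 19, and cluster 13 had 1 higher and 2 lower of 18. In GFP- cells 3 of 24 were higher in endothelial-like cells and none of 11 and 10 passed in smooth muscle-like and pericyte-like cells.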

How the data were processed

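Gene count tables per cell were deposited for the 4 libraries, with UMI counts that the authors made with Cell Ranger, and per the labels the version was 7.1.0 with build mm10 (later steps in Seurat 4.30). The study's methods name a later Cell Ranger version and other builds as well, so the build of the counts is not settled; coordinates here are those of RefSeq on GRCm38.p6. The study's methods remove ambient RNA with DecontX after import. The deposited counts are whole numbers, whether they precede that step is not stated, and some deposited barcodes failed the filters below.

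Cells needed more than 200 genes and under 10% mitochondrial UMIs, and doublets were scored by simulation and removed at a rate that grew with the number of barcodes (27 to 366 cells per library). Sequencing depth was 6153 to 13826 UMIs per deposited barcode at the median. Clusters came from 2000 variable genes without the members, 30 components, 20 neighbours and Leiden resolution 1, with Python 3.11.15, scikit-learn 1.9.0, leidenalg 0.10.2, igraph 0.11.9, numpy 2.4.6, scipy 1.17.1, pandas 2.3.3 and matplotlib 3.10.9. A cluster was named "-like" from at least 3 markers of a list above 20 CPM and 2 times the mean of other clusters, and was left unnamed where at least 60% of another list passed, where leading genes belonged elsewhere, where under 65% of its own list passed with no marker among the 10 leading genes, or where its cells were shallow. These limits were set after the clusters had been seen. The study's own tools were not used, so class names may differ from the study's.

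UMIs were summed per class and library. CPM has an exact Poisson interval, the log2 ratio a conditional exact binomial interval and shares a Clopper-Pearson interval, all at 95%. Counts of 0 were set to a floor of 3 UMIs in ratios, and no ratio was made where both counts were at or under it. Classes needed 40 cells in each library. Satellite-like and lymphatic endothelial-like cells and cluster 33 did not reach this in WT GFP+, and myofiber-like cells had 4 members with 50 UMIs in GFP+ and were left out. The ratio step was tested on simulated counts.

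Named were the Timp genes, the 10 members of highest total, the 3 members with the largest share of their UMIs in each class, and every member past the limit. Members, lists and tests were chosen with earlier results of these data known. Adam9, Adam15, Adamts13, Adamts14 and other members outside this rule, as well as genes of the pathway list, are given as examples chosen after their values were seen. The values of 1 gene of the pathway list are not reported here.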

Additional observations from a re-analysis of the deposited data

Results flagged for a closer look

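Several members passed the limit of a log2 ratio of 1 in opposite directions in different classes, Sod1KO against WT. With 1 library per group none of these differences between classes was tested. Adam12 was at 1.95 in smooth muscle-like cells and -1.06 in tSC-like cells of the GFP+ fraction, the first with 28.6% of its Sod1KO UMIs from 1 cell and the second reversed within clusters 8 and 12. Adam23 was at 2.36 in cluster 9 and -1.61 in endothelial-like cells. Mmp19 was at 2.38 in cluster 9 and -1.24 in tenocyte-like cells. Timp4 was at 4.03 in macrophage-like and -2.75 in pericyte-like cells, with 3 UMIs in WT of the first and 5 in Sod1KO of the second. Adamts12 was at 1.18 in GFP- smooth muscle-like and -1.27 in GFP+ tSC-like cells. Adamtsl5 was at 1.51 in cluster 13 and -1.23 in GFP- endothelial-like cells.

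The GFP+ and GFP- fractions of 1 class went opposite ways for Adamts12 in pericyte-like cells, at -1.06 in GFP+ and 0.62 in GFP-, a difference that was not tested either.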

How the results depend on the processing

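No paired analysis was possible because each group is 1 library with no replicate, and for the same reason no replicate was left out.

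Of 823 recomputed log2 ratios 712 stayed within the counting interval, 106 moved beyond it and 5 changed sign. The sign changes were all in tSC-like cells: Adam12 was at 0.24 without clusters mostly of 1 library, 0.24 within cluster 12 and 0.45 within cluster 8, and within cluster 8 Mmp16 was at 1.49 and Mmp28 at -1.42. Among the recomputed ratios, all 61 of at least 1 in size kept a size of at least 1 under median-of-ratios scaling. With the mean of per-cell CPM 52 of 61 did, and without the top cell of each library 57 of 60. These 61 are not the same set as the 47 ratios of GFP+ and the 8 of GFP- counted in the results. The single-cluster readings were chosen after seeing the data.

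Of 138 counts of called members 105 stayed within 1.5 times. With a minimum of 20 UMIs the count went to 8 from 4 in mSC-like, 2 from 1 in perineurial-like, 3 from 1 in smooth muscle-like, 6 from 3 in endothelial-like and 7 from 3 in macrophage-like cells and 1 from 0 in cluster 5, and in GFP- to 6 from 3 in smooth muscle-like and 2 from 1 in pericyte-like cells. With a minimum of 200 UMIs it was 1 in mSC-like, pericyte-like and endothelial-like cells of GFP+ and in endothelial-like cells of GFP-, 2 in tenocyte-like cells, 6 in cluster 9, and 0 in perineurial-like, smooth muscle-like and macrophage-like cells of GFP+ and in smooth muscle-like and pericyte-like cells of GFP-; fewer members are tested at that minimum. Without doublet removal it was 5 in smooth muscle-like and 6 in macrophage-like cells, with stricter cell filters 1 in mSC-like and 3 in smooth muscle-like cells, with 5% assumed ambient RNA taken off 2 in mesenchymal-like and 4 in smooth muscle-like cells, with the mean of per-cell CPM 3 in cluster 5 and 3 in smooth muscle-like cells, and with the members kept for clustering 1 in mesenchymal-like cells. At the finer resolution it was 10 in perineurial-like cells and 0 in GFP- pericyte-like cells, and the largest part of cluster 9 gave 3 in place of 10. In tSC-like cells it was 2 in place of 11 both within cluster 12 and without clusters mostly of 1 library. Apart from those for cluster 12 alone and for the largest part of cluster 9, these recomputed counts have no percentage of all genes beside them. They show how the counts depend on the settings and are no result about the members. The cause of these shifts was not tested. Pools of 4 mice give no spread between animals, and members under 50 UMIs in a class entered no count of called members.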
